A study of Rattus norvegicus with 60 samples.

Results

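The Slc25 genes encode the mitochondrial carriers, and their expression was followed in the liver of male F344/N rats dosed with N,N-dimethyl-p-toluidine (DMPT) or with p-toluidine. A gene was counted as a member where a probe set was annotated to exactly 1 symbol, and that symbol was Slc25a followed by a number. Where a gene had several such probe sets, the one with the highest mean over all 60 arrays stood for the gene. This gave 40 Slc25 genes of 14217 genes, measured by 58 probe sets. Of these genes, 28 had 1 probe set and 12 had several. Slc25a51 is not described because its 2 probe sets list 2 gene IDs. Slc25a2, Slc25a26, Slc25a40, Slc25a43, Slc25a47 and Slc25a52 had no probe set of their own by this rule and were not analysed here.

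There were 2 chemicals with 6 groups each and 5 arrays per group. The rats were 5 to 6 weeks old at the start, were housed 2 to a cage on the NTP-2000 diet and were gavaged on 5 consecutive days with corn oil at 2.5 ml/kg. The oil held no chemical (vehicle) or 1 chemical at 5 daily doses, which rose from 1 and 6 over 20 and 60 to 120 mg/kg, and each chemical had its own vehicle group. RNA came from the left lateral lobe of the liver. DMPT is p-toluidine with methyl groups on its amine nitrogen. The doses of p-toluidine are taken from the labels of its samples, because the dosing protocol lists them for DMPT. Nothing in the labels ties an array to a separate rat, so the spread that the p-values measure is that between these samples and may be technical. Values are on the log2 scale, and each change is a dose group's mean minus the mean of the same chemical's vehicle group. The array medians ran from 3.53 to 3.61 in the DMPT set and from 2.73 to 2.81 in the p-toluidine set, so that only responses, and not levels, are compared between the chemicals.

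Mitochondrial carriers sit in the inner membrane, with few exceptions, and each exchanges or imports a narrow set of solutes. Some serve ATP production by moving adenine nucleotides and phosphate, and others link the cytosol to the citric acid cycle, the urea cycle, fatty acid oxidation, heme synthesis and folate metabolism. In hepatocytes they carry ornithine, aspartate, glutamate, citrate and acylcarnitines between compartments. They are encoded in the nucleus, made in the cytosol and inserted into the inner membrane with the help of small chaperones of the intermembrane space.

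A few carrier genes changed with dose and most were not called. At 120 mg/kg the change of Slc25a44, which carries branched-chain amino acids, was -0.53 ± 0.08 (SE, n = 5 arrays per group) with DMPT and -0.65 ± 0.09 with p-toluidine. The glutathione carrier gene Slc25a39 changed by 0.39 ± 0.08 with DMPT and by 0.69 ± 0.10 with p-toluidine. The ATP-Mg/phosphate carrier gene Slc25a25 was lower by a larger step, -0.85 ± 0.26 with DMPT and -0.99 ± 0.20 with p-toluidine. In all, 12 of the 40 genes passed an adjusted p of at most 0.05 at a dose of either chemical, 3 more did so only in a trend over dose, and 25 never did. The 12 are 30% of the members, against 23.1% of all genes called at any dose, and the 15 with a call at a dose or in a trend are 37.5%, against 30.7% of all genes. These shares of members lie near those of all genes, and no test was made of the difference. Adjusted p-values came from limma, corrected by the Benjamini-Hochberg method over the 31042 probe sets that are not controls.

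**Figure D1:**
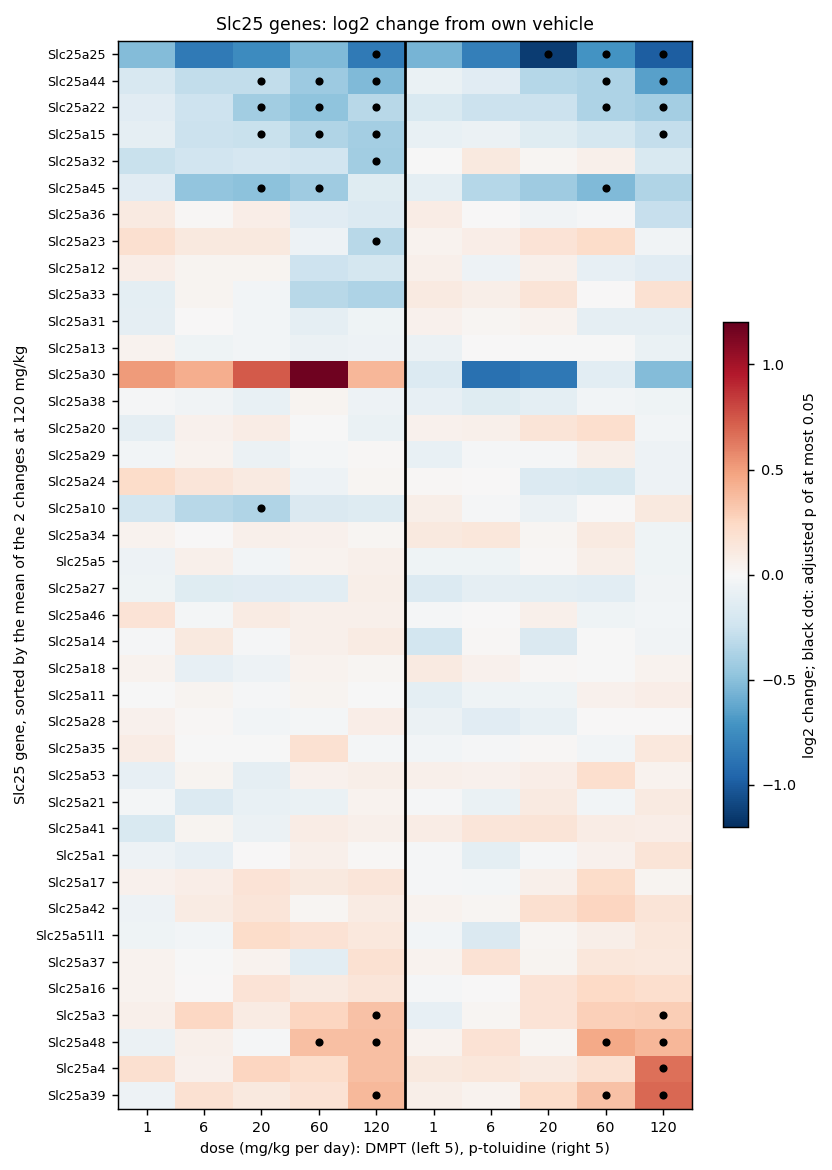
Heat map of the log2 change of each of the 40 Slc25 genes (rows) at 5 doses of DMPT and 5 doses of p-toluidine (columns), each against its own vehicle group, with a black dot where the adjusted p was at most 0.05. Slc25a44, Slc25a22, Slc25a15 and Slc25a25 are blue and Slc25a39, Slc25a48 and Slc25a3 red in both columns for 120 mg/kg; Slc25a30 has strong colours and no dot.

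The promoters of 3 of these genes are shown because they hold the short core of the antioxidant response element, which transcription factors of the oxidative stress response bind, and because 2 of the 3 genes rose and 1 fell at 120 mg/kg of both chemicals. Each is the RefSeq sequence on the GRCr8 assembly, read 5′ to 3′ from 250 bases before to 50 bases after the annotated start. The windows are chr7:27506578-27506877 on the minus strand for Slc25a3, chr17:8172327-8172626 on the minus strand for Slc25a48 and chr3:36116532-36116831 on the minus strand for Slc25a25. Capitals mark the motif letters found on either strand.
Slc25a3: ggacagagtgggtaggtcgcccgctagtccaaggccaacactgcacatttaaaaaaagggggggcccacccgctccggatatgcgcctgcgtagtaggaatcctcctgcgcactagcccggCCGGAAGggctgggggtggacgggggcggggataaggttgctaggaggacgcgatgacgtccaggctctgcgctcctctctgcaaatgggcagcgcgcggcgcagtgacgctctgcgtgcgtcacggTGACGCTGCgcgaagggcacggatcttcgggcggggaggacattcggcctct
Slc25a48: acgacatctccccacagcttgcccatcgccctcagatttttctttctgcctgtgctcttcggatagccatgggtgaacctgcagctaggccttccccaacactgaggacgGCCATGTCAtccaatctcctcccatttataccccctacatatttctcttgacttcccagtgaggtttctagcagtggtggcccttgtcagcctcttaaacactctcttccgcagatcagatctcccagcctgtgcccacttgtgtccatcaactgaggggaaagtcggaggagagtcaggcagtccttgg
Slc25a25: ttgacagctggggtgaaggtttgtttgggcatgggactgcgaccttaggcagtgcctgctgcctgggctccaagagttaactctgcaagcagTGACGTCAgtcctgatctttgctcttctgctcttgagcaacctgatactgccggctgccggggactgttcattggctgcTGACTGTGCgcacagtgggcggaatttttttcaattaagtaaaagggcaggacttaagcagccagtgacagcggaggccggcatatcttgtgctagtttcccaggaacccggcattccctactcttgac

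The 5 motifs searched on both strands were the antioxidant response core TGACNNNGC, the E-box CACGTG, the cyclic AMP response element TGACGTCA, the NRF1 core GCGCATGC and the ETS core CCGGAAG. In Slc25a3 the capitals are an ETS core and an antioxidant response core that lies across the start. In Slc25a48 they are an antioxidant response core on the opposite strand; a second start listed for this gene holds 3 E-boxes and no antioxidant response core, so the letters found and the counts of members depend on the start taken. In Slc25a25 they are a cyclic AMP response element whose first base is at -158 from the start and, apart from it, an antioxidant response core at -79. RefSeq gave a 300-base promoter for 34 of the 40 genes, and the first start listed was taken for each. The antioxidant response core was found in 3 of these 34 (8.82%) and in 12.2% of 27457 genes. The E-box was found in 2 of the 34 (5.88%) against 6.65% of all genes, the cyclic AMP response element in 2 (5.88%) against 1.91%, the NRF1 core in 2 (5.88%) against 2.66% and the ETS core in 6 (17.6%) against 9.22%. The promoters of Slc25a44, Slc25a39, Slc25a22 and Slc25a15 held none of these letters in this window. The median GC content was 60.3% over the 34 promoters and 52.3% over all genes. These matches describe the sequence, and whether any factor binds there was not measured.

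With DMPT the Slc25 genes called were first seen at 20 mg/kg and were most numerous at 120 mg/kg. The first dose with a call need not be the first dose with a change. None was called at 1 mg/kg, where limma called 0% of all genes and 3 members had an unadjusted p under 0.05. None was called at 6 mg/kg, where 0.0774% of all genes were called higher and 0.134% lower and 9 members had an unadjusted p under 0.05. At 20 mg/kg 5 members were lower and 0 higher, against 1.6% and 1.74% of all genes. The 5 were Slc25a10, Slc25a15, Slc25a22, Slc25a44 and Slc25a45. Their means with vehicle, at 6 and at 20 mg/kg were 7.40, 7.07 and 7.03 for Slc25a10 and 9.65, 9.39 and 9.39 for Slc25a15. For Slc25a22 they were 8.13, 7.88 and 7.71, for Slc25a44 5.86, 5.56 and 5.57, and for Slc25a45 5.50, 5.02 and 5.00. The count at 20 mg/kg was 2 to 4 in the 10 fits without 1 array, and 2 with the mean of all probe sets. It was lowest without DMPT vehicle replicate 5 and without DMPT 20 mg/kg replicate 1 (2 each). At 60 mg/kg 4 members were lower and 1 higher, against 4.89% and 2.42% of all genes; this count of 5 was 3 without DMPT vehicle replicate 4 and without DMPT 60 mg/kg replicates 2 or 5. At 120 mg/kg 6 members were lower and 3 higher, 22.5% of the members together, against 7.43% and 5.29% of all genes. The median change over the 40 genes at 120 mg/kg was 0.02, against -0.00 over all genes. The count of 9 at 120 mg/kg was 4 without DMPT vehicle replicate 1, 5 without DMPT 120 mg/kg replicate 5, and 4 without the 5 DMPT arrays of narrow spread, 2 of which are in the 120 mg/kg group.

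With p-toluidine the calls also began at 20 mg/kg, with 1 gene, and reached 8 genes at the top dose. None of the 40 genes was called at 1 or 6 mg/kg, where limma called 0% of all genes at each dose and 3 and 5 members had an unadjusted p under 0.05. At 20 mg/kg only Slc25a25 was called, and it was lower; 0.457% of all genes were lower and 0.626% higher. For 60 mg/kg 4 members were lower and 2 higher, against 3.59% and 3.01% of all genes; this count of 6 was 2 without p-toluidine 60 mg/kg replicate 3 and 3 without replicate 5. At 120 mg/kg 4 members were lower and 4 higher, 20% of the members together, against 6.91% and 7.84% of all genes. The median change over the 40 genes at 120 mg/kg was -0.03, against -0.00 over all genes. Along the rank of the dose 3 members rose and 6 fell with DMPT, against 7.38% and 12.2% of all genes. With p-toluidine 6 rose and 5 fell along the rank of the dose, against 10.4% and 9.54% of all genes.

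Among the carriers of adenine nucleotides, phosphate and coenzyme A, all 11 listed genes were measured. Slc25a3, the phosphate carrier that feeds ATP synthase, rose at the top dose of both chemicals. Its DMPT vehicle arrays read 9.91, 10.13, 10.09, 9.49 and 9.64, and the arrays at 120 mg/kg read 10.30, 10.11, 10.20, 10.14 and 10.28. Its p-toluidine vehicle arrays read 9.45, 9.37, 9.20, 8.83 and 8.99, and those at 120 mg/kg 9.53, 9.45, 9.47, 9.50 and 9.38. In both chemicals the vehicle arrays were widely spread and the highest of them overlapped the dosed group. The change was 0.35 ± 0.11 (adjusted p = 0.0369) with DMPT and 0.30 ± 0.09 (adjusted p = 0.0293) with p-toluidine. The call was lost in 6 of 10 fits that left out 1 DMPT array, with the highest adjusted p, 0.152, when vehicle replicate 4 was left out, and in 4 of 10 with p-toluidine, at most at 0.139 without vehicle replicate 4. The trend over dose was called with both, with slopes of 0.06 ± 0.02 (adjusted p = 0.0183) and 0.08 ± 0.02 (adjusted p = 0.000385) per dose rank; the DMPT trend was lost without vehicle replicate 4 (0.059).

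Slc25a4, which encodes the adenine nucleotide translocase typical of heart and muscle, rose at 120 mg/kg of p-toluidine. The vehicle arrays read 4.71, 4.56, 4.81, 4.74 and 5.09, and the arrays at 120 mg/kg read 5.38, 5.36, 5.38, 5.50 and 5.60. Every array at 120 mg/kg was above every vehicle array. The change was 0.66 ± 0.13, 1.58-fold (adjusted p = 0.000465), and the call was lost in 0 of 10 fits without 1 array. Of 5 measured skeletal muscle markers, 1 was called higher at this dose, Tnnc2 at 0.51 ± 0.12 (adjusted p = 0.00566), and the other 4, Ckm, Acta1, Myh4 and Tnnt3, were not. The mean level of the 5 ran from 1.52 to 1.60 with p-toluidine vehicle and from 1.5 to 1.83 at 120 mg/kg, and its part in the change of Slc25a4 was not tested. With DMPT, where 0 of the 5 were called, the change was 0.36 ± 0.14 (adjusted p = 0.0915), and the difference between the responses, DMPT minus p-toluidine, was -0.30 with a 95% interval from -0.68 to 0.08. Of the other translocase genes, Slc25a5, the widely expressed form, changed by 0.06 and -0.05, and Slc25a31 by -0.05 and -0.11; neither was called.

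Slc25a25 encodes a calcium-regulated carrier that exchanges ATP-Mg for phosphate and so sets the adenine nucleotide content of the matrix. Its arrays read 7.86, 7.19, 7.15, 6.19 and 7.12 in the DMPT vehicle group and 6.25, 6.36, 6.27, 6.51 and 5.87 at 120 mg/kg. They read 6.37, 7.45, 6.85, 6.54 and 6.98 in the p-toluidine vehicle group and 5.59, 6.18, 5.89, 5.80 and 5.80 at 120 mg/kg. With p-toluidine all 5 dosed arrays were below all vehicle arrays, whereas with DMPT vehicle replicate 4 lay within the dosed group. With DMPT the change was -0.85 ± 0.26, 1.80-fold lower (adjusted p = 0.0308), and with p-toluidine -0.99 ± 0.20, 1.99-fold lower (adjusted p = 0.000747). At 1 mg/kg, where 0% of all genes were called, the change was -0.52 with DMPT and -0.56 with p-toluidine. With p-toluidine it was -0.82 at 6 mg/kg (adjusted p = 0.184), -1.14 ± 0.20 (adjusted p = 0.00254) for the 20 mg/kg group and -0.71 ± 0.20 (adjusted p = 0.0293) for the 60 mg/kg group. With DMPT it was -0.85, -0.75 and -0.53 at 6, 20 and 60 mg/kg, with adjusted p-values of 0.228, 0.124 and 0.289. The trend over dose was called with p-toluidine and not with DMPT. The DMPT call at 120 mg/kg was lost in 6 of 10 fits without 1 array, with the highest adjusted p, 0.126, when vehicle replicate 1 was left out, and the p-toluidine call at 120 mg/kg in 0 of 10. The p-toluidine call at 60 mg/kg was lost in 7 of 10, at most at 0.122 without vehicle replicate 2.

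Slc25a23, a close relative of Slc25a25, was lower at 120 mg/kg of DMPT. Its arrays read 7.65, 7.40, 7.39, 7.58 and 7.26 with vehicle and 6.85, 7.25, 7.22, 7.25 and 7.02 at that dose. All 5 dosed arrays lay below all vehicle arrays, the nearest by a narrow margin. The change was -0.34 ± 0.10 (adjusted p = 0.0319). It was lost in 4 of 10 fits without 1 array, at most at an adjusted p of 0.124 without DMPT 120 mg/kg replicate 1. With p-toluidine the change was -0.04 ± 0.07 (adjusted p = 0.804), and the difference between the responses was -0.29 (95% interval from -0.54 to -0.04, adjusted p = 0.661). Its other 2 probe sets changed by -0.12 and -0.10 with DMPT and were not called. Slc25a24 and Slc25a41 of the same group changed by 0.02 and 0.07 with DMPT and by -0.06 and 0.08 with p-toluidine, with no call.

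The genes for coenzyme A carriers, Slc25a16 and Slc25a42, were called only in the p-toluidine trend. Their slopes were 0.05 ± 0.01 per dose rank for each, with adjusted p-values of 0.00233 and 0.0292. The Slc25a42 call was lost in 3 of 30 fits without 1 array, at most at 0.0733 without p-toluidine vehicle replicate 3. Slc25a17, the carrier of the peroxisomal membrane, changed by 0.22 at 60 mg/kg of p-toluidine (adjusted p = 0.0857) and was not called. From the list of 7 genes for making coenzyme A, 1 rose and 0 fell at 120 mg/kg of each chemical, with medians of -0.01 with DMPT and 0.09 with p-toluidine. That gene was Dcakd, annotated as a dephospho-coenzyme A kinase domain protein, at 0.66 ± 0.10 and 0.78 ± 0.10.

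Of the 4 genes for aspartate and glutamate carriers, Slc25a22, a glutamate carrier, fell with both chemicals. In the DMPT set its vehicle arrays read 8.34, 7.94, 8.20, 8.02 and 8.14 and its arrays at 120 mg/kg 7.99, 7.66, 7.82, 7.68 and 7.82. In the p-toluidine set the vehicle arrays read 7.70, 7.89, 7.58, 7.74 and 7.80 and the arrays at 120 mg/kg 7.35, 7.29, 7.47, 7.31 and 7.25. The groups were separate with p-toluidine, and 1 dosed array lay within the vehicle range with DMPT. With DMPT the change was -0.42 ± 0.09 at 20 mg/kg (adjusted p = 0.00809), -0.48 ± 0.09 at 60 mg/kg (adjusted p = 0.00118) and -0.33 ± 0.09 at 120 mg/kg (adjusted p = 0.0149). With p-toluidine it was -0.37 ± 0.08 at 60 mg/kg (adjusted p = 0.00266) and -0.41 ± 0.08 at 120 mg/kg (adjusted p = 0.000369). The DMPT call at 120 mg/kg was lost in 1 of 10 fits without 1 array, that without vehicle replicate 1 (adjusted p = 0.063), and without the 5 DMPT arrays of narrow spread (0.0526). Slc25a12, one of the aspartate/glutamate exchangers of the malate-aspartate shuttle, fell along the DMPT doses by -0.06 ± 0.02 per rank (adjusted p = 0.0234), a call lost without DMPT 120 mg/kg replicate 2 (0.0715) and without the arrays of narrow spread (0.269). Slc25a13, the exchanger typical of liver, changed by -0.07 and -0.08 and Slc25a18 by 0.03 and 0.05, with no call.

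From the 10 enzymes of the malate-aspartate and citrate shuttles, 2 rose and 1 fell at 120 mg/kg of DMPT, and 2 rose and 2 fell with p-toluidine, with medians of -0.11 and -0.02. Me1, the cytosolic malic enzyme, rose by 0.42 ± 0.09 and 0.52 ± 0.10, and Mdh1, the cytosolic malate dehydrogenase, by 0.25 ± 0.05 and 0.29 ± 0.05. The aspartate aminotransferase genes went the other way. Got2 was called with both chemicals, at -0.21 ± 0.06 with DMPT and -0.28 ± 0.06 with p-toluidine. Got1 changed by -0.66 ± 0.08 with p-toluidine and by -0.32 ± 0.12 with DMPT, where it was not called (adjusted p = 0.0853).

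Among the carriers of citrate and other di- and tricarboxylates, Slc25a10 was called at 1 dose and the other 5 genes at none. Slc25a10 exchanges dicarboxylates such as malate and succinate for phosphate. Its arrays read 7.37, 7.35, 7.38, 7.50 and 7.38 in the DMPT vehicle group and 7.07, 7.13, 7.16, 6.93 and 6.88 at 20 mg/kg. All 5 arrays at 20 mg/kg were below all vehicle arrays, and the change was -0.36 ± 0.08 (adjusted p = 0.00711). At 60 and 120 mg/kg it was -0.17 and -0.15, with adjusted p-values of 0.225 and 0.236. The DMPT vehicle arrays were close together, with an SD of 0.06 around 7.40. The groups at 1, 6 and 60 mg/kg also lay wholly below them, with means of 7.17, 7.07 and 7.22, and were not called. With p-toluidine the changes at 20 and 120 mg/kg were -0.07 and 0.12. The difference between the responses at 20 mg/kg was -0.29 with a 95% interval from -0.50 to -0.09, at an unadjusted p of 0.00666 and an adjusted p of 0.492. The second probe set of Slc25a10 changed by -0.15 ± 0.12 at 120 mg/kg of DMPT, and the mean of both probe sets at 20 mg/kg was not called (change -0.23, adjusted p = 0.16). The citrate carrier gene Slc25a1 changed by 0.01 and 0.15 at 120 mg/kg, the oxoglutarate carrier gene Slc25a11 by -0.00 and 0.08, and Slc25a21, Slc25a34 and Slc25a35 by -0.05 to 0.13.

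Slc25a15, which brings ornithine into the matrix for the urea cycle, fell with both chemicals. Its arrays read 9.74, 9.58, 9.57, 9.62 and 9.76 with DMPT vehicle and 9.29, 9.38, 9.32, 9.23 and 9.04 at 120 mg/kg. In the p-toluidine set they read 8.91, 8.89, 8.95, 9.0 and 8.87 with vehicle and 8.65, 8.52, 8.52, 8.70 and 8.78 at 120 mg/kg. In each set all dosed arrays lay below all vehicle arrays. The change with DMPT was -0.26 ± 0.07 at 20 mg/kg (adjusted p = 0.0474), -0.36 ± 0.07 at 60 mg/kg (adjusted p = 0.00246) and -0.40 ± 0.07 at 120 mg/kg (adjusted p = 0.000356). With p-toluidine it was -0.21 ± 0.07 at 60 mg/kg (adjusted p = 0.0667) and -0.29 ± 0.07 at 120 mg/kg (adjusted p = 0.00416). Neither call at 120 mg/kg was lost in any of 10 fits without 1 array, while the call at 20 mg/kg of DMPT was lost in 9 of 10, at most at 0.139 without DMPT 20 mg/kg replicate 4.

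This gene had 6 probe sets, which gives a second reading of the same change. Of the 5 bright ones, 4 were called lower at 120 mg/kg of DMPT, with changes from -0.40 to -0.32, and the fifth changed by -0.22. With p-toluidine 3 of the 5 were called, with changes of -0.29, -0.38 and -0.36, and the others changed by -0.17 and -0.22. The dim sixth probe set, with a mean of 1.85, changed by 0.03 and -0.06. Slc25a29, a carrier of basic amino acids in the same list, changed by 0.01 and -0.06 and was not called.

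In the list of 8 genes of the urea cycle and ornithine metabolism, 2 fell and 0 rose at 120 mg/kg of DMPT, and 3 fell and 1 rose with p-toluidine, with a median of -0.11 in both. Oat, the ornithine aminotransferase of the matrix, had the largest change in the list, -2.11 ± 0.20 with DMPT and -2.49 ± 0.25 with p-toluidine. Asl, argininosuccinate lyase, changed by -0.37 ± 0.08 and -0.40 ± 0.08. Arg1, which makes ornithine in the cytosol, rose by 0.35 ± 0.08 with p-toluidine.

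**Figure D2:**
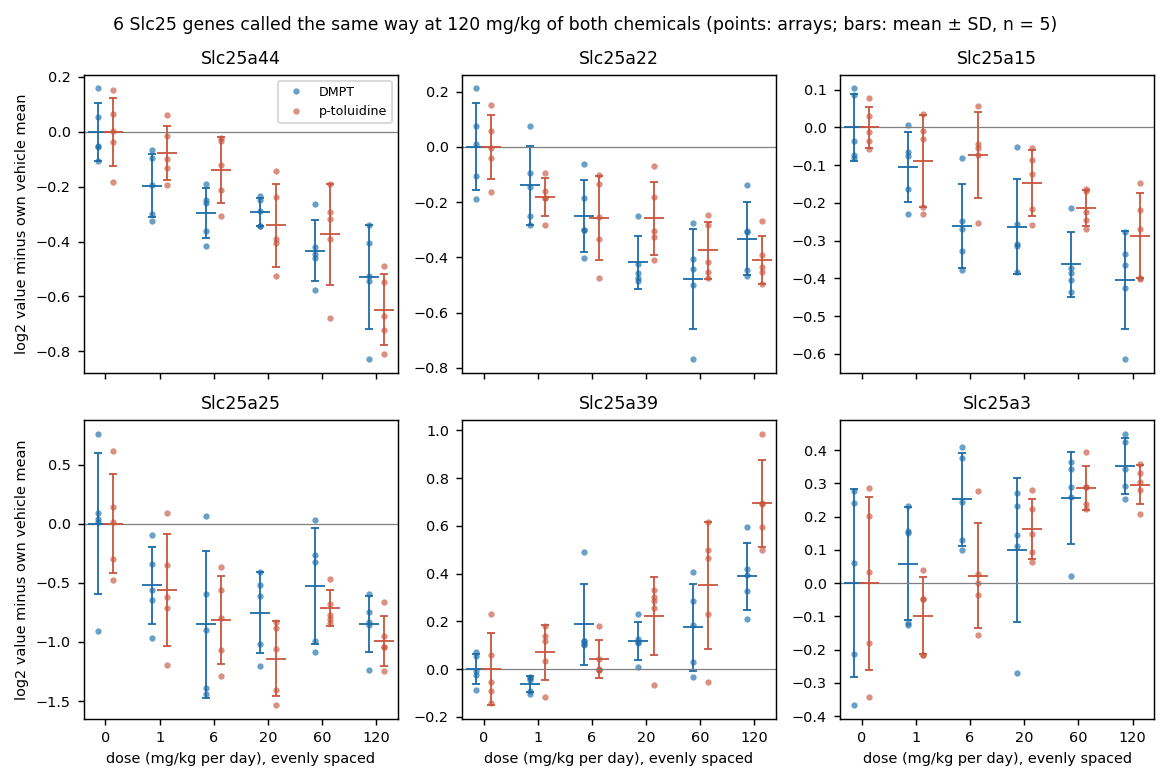
Log2 value of each array minus the mean of its own vehicle group (vertical axis) by dose in mg/kg per day (horizontal axis, evenly spaced) for 6 Slc25 genes, DMPT in blue and p-toluidine in red; points are arrays and bars are mean ± SD of 5 arrays. The group means of Slc25a44 and Slc25a15 are lowest at 120 mg/kg within each chemical. That of Slc25a22 is lowest at 60 mg/kg among the DMPT doses and at 120 mg/kg among the p-toluidine doses. Those of Slc25a39 and Slc25a3 are highest at 120 mg/kg of both chemicals. Those of Slc25a25 are -0.52 or lower at every dose from 1 mg/kg on, with wide spread.

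Slc25a20, the carnitine/acylcarnitine carrier that fatty acid oxidation needs, changed by -0.08 ± 0.09 with DMPT and -0.03 ± 0.08 with p-toluidine at 120 mg/kg and was never called. Its relatives Slc25a45 and Slc25a48 did change, in opposite directions. Slc25a48, reported as a choline carrier, read 4.29, 4.79, 4.35, 4.62 and 4.65 with DMPT vehicle and 4.77, 4.93, 4.83, 4.97 and 5.00 at 120 mg/kg. With p-toluidine vehicle it read 3.76, 3.84, 3.79, 3.63 and 3.85, and at 120 mg/kg 4.29, 4.43, 4.05, 3.98 and 4.15. The p-toluidine groups were separate, and the DMPT groups met at 1 vehicle array of 4.79. The change was 0.36 ± 0.11 at both 60 and 120 mg/kg of DMPT (adjusted p = 0.0398 and 0.0242), 0.46 ± 0.11 at 60 mg/kg of p-toluidine (adjusted p = 0.0135) and 0.40 ± 0.11 at 120 mg/kg (adjusted p = 0.0168). Its second probe set rose too, by 0.26 ± 0.08 (adjusted p = 0.0297) and 0.38 ± 0.11 (adjusted p = 0.0294) at 120 mg/kg. The call at 120 mg/kg was lost in 4 of 10 fits without 1 DMPT array, at most at 0.0947 without vehicle replicate 1, and in 2 of 10 with p-toluidine, at most at 0.0647 without 120 mg/kg replicate 2. For 60 mg/kg it was lost in 7 of 10 with DMPT, at most at 0.128 without vehicle replicate 1, and in 1 of 10 with p-toluidine, at 0.0557 without 60 mg/kg replicate 3.

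Slc25a45 was called lower at 20 and 60 mg/kg of DMPT, at 60 mg/kg of p-toluidine and in the p-toluidine trend. Its arrays read 5.53, 5.31, 5.39, 5.57 and 5.68 with DMPT vehicle, 5.08, 5.05, 5.08, 5.11 and 5.03 at 60 mg/kg and 5.66, 4.85, 5.49, 5.34 and 5.40 at 120 mg/kg. The arrays at 60 mg/kg were close together and below all vehicle arrays, while 4 of 5 at 120 mg/kg were back in the vehicle range. At 6 mg/kg of DMPT all 5 arrays were also below all vehicle arrays, with a mean of 5.02 against 5.50, but the gene was not called. The change was -0.49 ± 0.12 at 20 mg/kg (adjusted p = 0.0214), -0.43 ± 0.12 at 60 mg/kg (adjusted p = 0.0319) and -0.15 ± 0.12 at 120 mg/kg (adjusted p = 0.541). The step from 60 to 120 mg/kg was 0.28 ± 0.12 and was not called (adjusted p = 0.523). With p-toluidine the vehicle arrays read 5.16, 5.21, 4.43, 4.90 and 4.77 and those at 60 mg/kg 4.62, 4.78, 4.18, 4.07 and 4.14, which overlap. That change was -0.53 ± 0.16 (adjusted p = 0.0458), and at 120 mg/kg it was -0.36 ± 0.16 (adjusted p = 0.156). The DMPT call at 20 mg/kg was lost in 3 of 10 fits without 1 array, at most at 0.081 without DMPT 20 mg/kg replicate 1. The calls at 60 mg/kg were each lost in 7 of 10, at most at 0.0927 without DMPT vehicle replicate 5 and at 0.144 without p-toluidine vehicle replicate 2. The p-toluidine trend had slopes from -0.11 to -0.07 per dose rank in the fits without 1 array. Its call was lost in 2 of 30, at most at 0.0628 without p-toluidine 120 mg/kg replicate 4.

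Of 9 measured genes of carnitine-dependent fatty acid oxidation, 2 fell and 0 rose at 120 mg/kg of DMPT, and 2 fell and 1 rose with p-toluidine, with a median of -0.01 in both. The acyl-coenzyme A dehydrogenase genes Acadvl and Acadl fell, by -0.35 ± 0.06 and -0.32 ± 0.07 with DMPT and by -0.49 ± 0.06 and -0.25 ± 0.07 with p-toluidine. Cpt1b, the muscle form of carnitine palmitoyltransferase, rose by 0.96 ± 0.18 with p-toluidine.

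The carriers of glycine, glutathione and branched-chain amino acids held the lowest adjusted p of a dose comparison among the 40 genes in each direction. Slc25a44 read 6.02, 5.81, 5.80, 5.75 and 5.91 with DMPT vehicle, 5.57, 5.51, 5.61, 5.51 and 5.62 at 20 mg/kg and 5.52, 5.03, 5.33, 5.45 and 5.31 at 120 mg/kg. It read 5.23, 5.41, 5.38, 5.56 and 5.48 with p-toluidine vehicle and 4.60, 4.74, 4.92, 4.69 and 4.86 at 120 mg/kg. Both dosed groups lay wholly below their vehicle group. Its change with DMPT was -0.29 ± 0.08 at 20 mg/kg (adjusted p = 0.0386), -0.43 ± 0.08 at 60 mg/kg (adjusted p = 0.000753) and -0.53 ± 0.08 at 120 mg/kg (adjusted p = 2.21e-05), which is 1.44-fold lower. With p-toluidine it was -0.37 ± 0.09 at 60 mg/kg (adjusted p = 0.00904) and -0.65 ± 0.09 at 120 mg/kg (adjusted p = 4.21e-06), 1.57-fold lower. The p-toluidine call at 60 mg/kg was lost with only the arrays compared in the fit (adjusted p = 0.0597). The second probe set fell as well, by -0.31 ± 0.09 (adjusted p = 0.0179) and -0.39 ± 0.10 (adjusted p = 0.00919). No call at 120 mg/kg was lost in 10 fits without 1 array for either chemical, whereas that at 20 mg/kg of DMPT was lost in 9 of 10, at most at 0.116 without vehicle replicate 1.

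Slc25a39, through which mitochondria take up glutathione, rose. Its arrays read 8.51, 8.45, 8.61, 8.59 and 8.53 with DMPT vehicle and 9.13, 8.96, 8.93, 8.86 and 8.75 at 120 mg/kg. They read 8.11, 8.27, 8.06, 8.15 and 8.44 with p-toluidine vehicle and 8.90, 8.80, 8.70, 8.90 and 9.19 at 120 mg/kg. Both dosed groups were wholly above their vehicle group. So were the arrays at 6 mg/kg of DMPT, with a mean of 8.73 against 8.54, where the gene was not called. At 120 mg/kg the change was 0.39 ± 0.08, 1.31-fold (adjusted p = 0.00157), with DMPT and 0.69 ± 0.10, 1.62-fold (adjusted p = 2.00e-05), with p-toluidine. It was 0.35 ± 0.10 at 60 mg/kg of p-toluidine (adjusted p = 0.0473). The calls at 120 mg/kg were lost in 0 of 10 fits without 1 array for each chemical, and that at 60 mg/kg in 8 of 10, at most at 0.164 without p-toluidine 60 mg/kg replicate 1. Its second, dimmer probe set rose by 0.29 ± 0.08 with DMPT (adjusted p = 0.0218) but changed by -0.04 ± 0.10 with p-toluidine (adjusted p = 0.868), so the probe sets of this gene disagree for p-toluidine. Slc25a38, the glycine carrier of heme synthesis, changed by -0.06 and -0.05 and was not called.

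**Figure D3:**
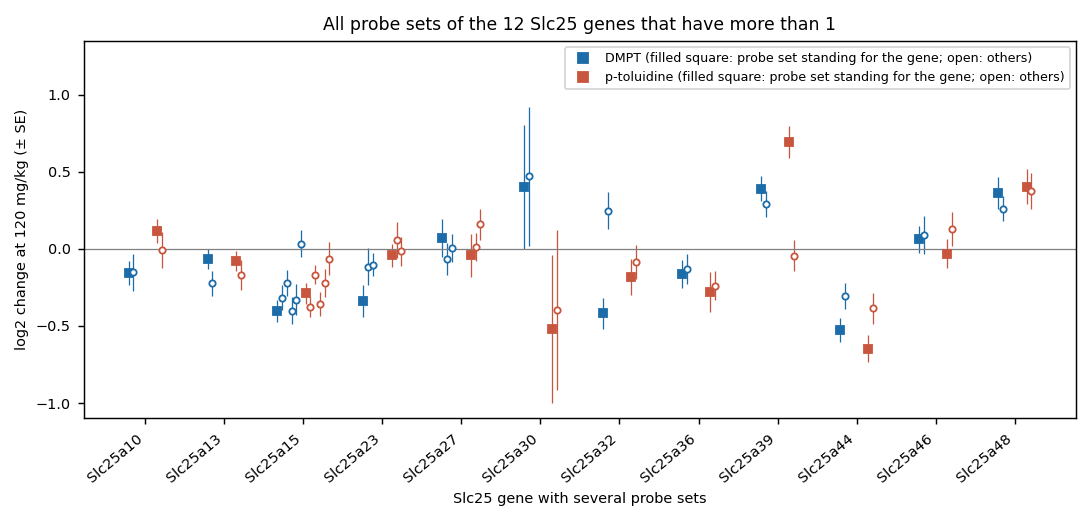
Log2 change at 120 mg/kg ± SE (vertical axis) of every probe set of the 12 Slc25 genes that have more than 1 (horizontal axis), DMPT in blue and p-toluidine in red; filled squares are the probe sets that stand for the gene and open circles the others. The probe sets of Slc25a44 and Slc25a48 lie on the same side of 0 for both chemicals, 5 of the 6 of Slc25a15 are below 0 with both, and the second ones of Slc25a39 with p-toluidine and of Slc25a32 with DMPT depart from the first.

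The mitoferrin genes, which encode the iron importers of mitochondria, were not called: Slc25a37 changed by 0.19 ± 0.10 and 0.13 ± 0.08 at 120 mg/kg and Slc25a28 by 0.08 ± 0.09 and 0.00 ± 0.08. Of 11 measured genes of heme synthesis and iron-sulfur cluster assembly, 4 fell and 0 rose with DMPT and 1 fell and 0 rose with p-toluidine. The medians were -0.00 and -0.14. The heme synthesis genes Cpox and Ppox each changed by -0.38 with DMPT (SE 0.09 and 0.08), as did Lyrm4, which serves iron-sulfur cluster assembly. Alad, an early enzyme of heme synthesis, was called with both chemicals, at -0.24 ± 0.07 with DMPT and -0.27 ± 0.08 with p-toluidine.

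Slc25a32, which carries folate and flavin adenine dinucleotide, was lower with DMPT. Its arrays read 4.31, 4.48, 4.69, 4.38 and 4.51 with vehicle and 4.23, 3.80, 4.16, 4.01 and 4.06 at 120 mg/kg, wholly below vehicle. The change was -0.42 ± 0.10 (adjusted p = 0.00582), and it was lost in 0 of 10 fits without 1 array. The mean of both of its probe sets was not called (change -0.09, adjusted p = 0.684), since the second, at a mean of 1.34, changed by 0.25 ± 0.12. With p-toluidine the change was -0.18 ± 0.12 (adjusted p = 0.392), and the difference between the responses was -0.23 with a 95% interval from -0.55 to 0.08. The pyrimidine nucleotide carrier genes Slc25a33 and Slc25a36 changed by -0.37 ± 0.18 and -0.16 ± 0.09 with DMPT and by 0.18 ± 0.14 and -0.28 ± 0.13 with p-toluidine, with no call. From 8 genes of folate and one-carbon metabolism, 1 rose and 1 fell with DMPT, and 2 rose and 0 fell with p-toluidine. The medians were -0.14 and 0.14. Aldh1l1, the cytosolic enzyme that oxidizes formyl-tetrahydrofolate, rose by 0.68 ± 0.08 and 1.00 ± 0.08. Shmt2, the mitochondrial serine hydroxymethyltransferase, fell by 0.32 ± 0.09 with DMPT, and Mthfd2 rose by 0.44 ± 0.14 with p-toluidine.

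The carriers related to the uncoupling proteins were not called. Slc25a14 and Slc25a27 changed by 0.10 and 0.07 with DMPT and by -0.05 and -0.04 with p-toluidine. Slc25a30 had the widest spread of the 40 genes: the SD within groups was 0.72 in the DMPT set and 0.86 in the p-toluidine set, against medians of 0.15 and 0.15 over the members and 0.14 and 0.15 over all genes. Its DMPT vehicle arrays read 8.27, 7.25, 6.62, 6.76 and 7.46, and the arrays at 60 mg/kg 7.41, 8.62, 8.86, 8.60 and 8.68. The p-toluidine arrays at 20 mg/kg read 6.29, 8.63, 6.76, 6.59 and 6.59, with 1 array far above the other 4. Thus 4 of the 5 arrays at 60 mg/kg of DMPT lay above all vehicle arrays, while the groups overlapped at every dose. The change at 60 mg/kg was 1.16 ± 0.40 with an adjusted p of 0.0922, which became 0.0451 when only the arrays of the 2 groups entered the fit. The difference between the responses at 20 mg/kg was 1.59 ± 0.66 (95% interval from 0.26 to 2.92, adjusted p = 0.601). With group means removed, the second probe set of Slc25a30 followed the first. Their Pearson r was 0.92 over the 30 DMPT arrays and 0.98 over the 30 p-toluidine arrays, and they share the same RNA on the same array. For the 2 brightest probe sets of Slc25a15, Slc25a44, Slc25a48 and Slc25a39, r was lower, at 0.70, 0.38, 0.10 and -0.08 with DMPT. With p-toluidine r was 0.63, 0.50, 0.20 and 0.21 for these genes.

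**Figure D4:**
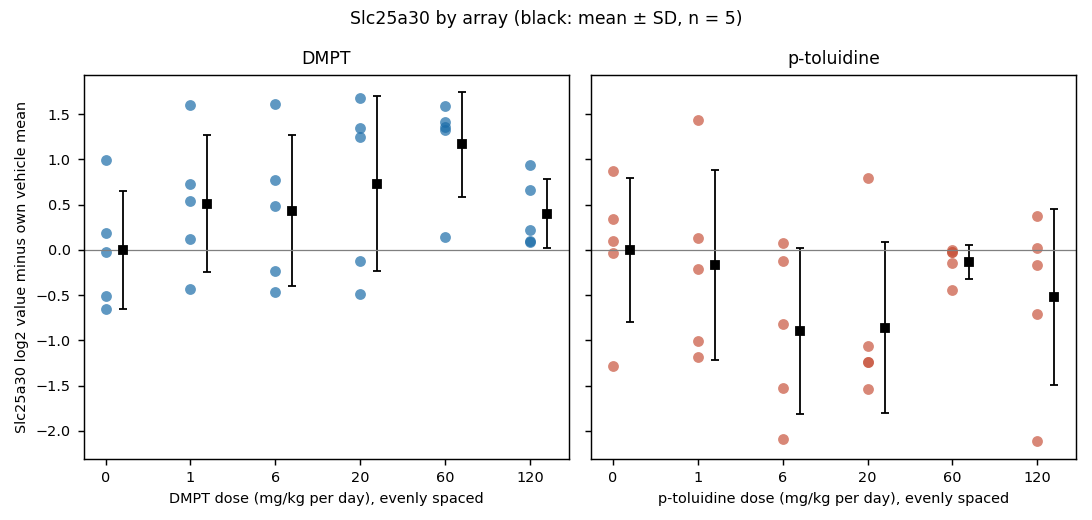
Slc25a30 log2 value of each array minus its own vehicle mean (vertical axis) by dose (horizontal axis, evenly spaced), DMPT on the left and p-toluidine on the right; black squares and bars are mean ± SD of 5 arrays. The arrays of a dose lie far apart, as at 20 mg/kg of p-toluidine, where the log2 values before subtraction run from 6.29 to 8.63, and are close together at 60 mg/kg of p-toluidine, where the SD was 0.19.

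The members left are Slc25a46, a protein of the outer membrane, Slc25a53, which has no assigned solute, and Slc25a51l1, which stood in no list of roles. They changed at 120 mg/kg by 0.06, 0.07 and 0.13 with DMPT and by -0.03, 0.04 and 0.13 with p-toluidine, and none was called. Leaving out Slc25a30 and Slc25a33, the 25 genes that were never called changed at 120 mg/kg by -0.16 to 0.19 with DMPT and by -0.28 to 0.15 with p-toluidine. For Slc25a5 the RefSeq table lists pseudogene copies, so its signal may not be from 1 gene. In 7 of the 40 genes the mean over all arrays was below that of the median probe set.

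Relatives with other symbols, other transporters and import proteins were set beside the family, and not all of them sit in the inner membrane. Of 5 relatives with other symbols (Ucp1, Ucp2, Ucp3, Mtch1 and Mtch2), 0 were called with DMPT and Mtch1 rose by 0.27 ± 0.08 with p-toluidine; the medians were 0.06 and 0.12. Of 18 measured other transporters, 4 rose and 1 fell with DMPT and 4 rose and 0 fell with p-toluidine, with medians of 0.07 and 0.11. The 4 that rose with each chemical include Vdac1 and Vdac2, which encode channels of the outer membrane. Sfxn1, a serine carrier, rose by 0.38 ± 0.08 and 0.47 ± 0.07, and Micu2, a regulator of calcium uptake, by 0.33 ± 0.08 and 0.38 ± 0.09. Letm1, an ion exchanger, changed by -0.40 ± 0.06 with DMPT. Of the 12 genes that import carriers into the inner membrane, 3 fell and 0 rose with each chemical, with medians of -0.12 and -0.08. The small chaperone genes Timm8a1 and Timm8b changed by -0.47 ± 0.11 and -0.29 ± 0.07 with DMPT and by -0.39 ± 0.09 and -0.24 ± 0.08 with p-toluidine.

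The chemicals were then compared at doses equal in mg/kg, which are not equal numbers of molecules because DMPT is the heavier. Each chemical also had its own set of arrays, so the comparison does not single out the methyl groups of DMPT. The change of each gene with p-toluidine was subtracted from its change with DMPT at each of 5 doses, over 40 genes, with p-values adjusted over all probe sets. No member was called at any dose. Limma called 0% of all genes at 1, 6, 20 and 60 mg/kg and 0.0141% at 120 mg/kg, and 1, 3, 2, 2 and 4 members had an unadjusted p under 0.05 at 1, 6, 20, 60 and 120 mg/kg. The 4 at the top dose were Slc25a10 at -0.27 (95% interval from -0.48 to -0.06), Slc25a23 at -0.29, Slc25a33 at -0.55 (from -1.03 to -0.08) and Slc25a39 at -0.30 (from -0.57 to -0.04). The interval for Slc25a44 ran from -0.11 to 0.35, for Slc25a15 from -0.31 to 0.08, for Slc25a22 from -0.16 to 0.31 and for Slc25a25 from -0.54 to 0.82. A difference as large as these bounds is not excluded by a p that misses the threshold.

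With both chemicals 7 Slc25 genes were called at 120 mg/kg, each in the same direction: Slc25a3, Slc25a39 and Slc25a48 rose, and Slc25a15, Slc25a22, Slc25a25 and Slc25a44 fell. They were 77.8% of the 9 called with DMPT and 87.5% of the 8 called with p-toluidine. Over all genes 1080 were called with both, 59.7% of 1808 and 51.5% of 2098. Across the 40 genes the changes had a Pearson r of 0.71 and a Spearman rho of 0.60, against 0.82 and 0.64 across all genes; genes are not independent replicates, and the sets share no arrays.

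**Figure D5:**
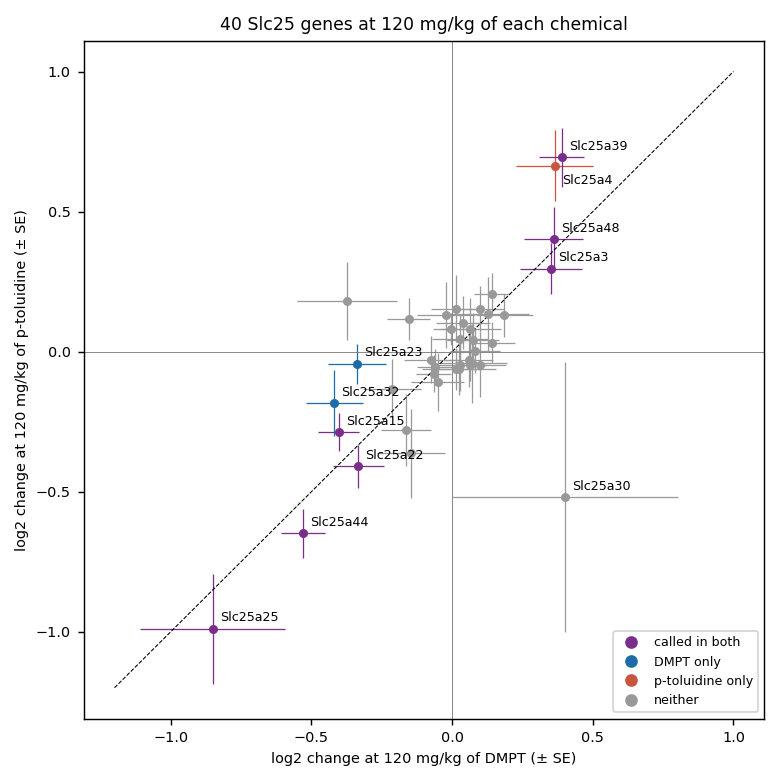
Log2 change ± SE at 120 mg/kg of p-toluidine (vertical axis) against that at 120 mg/kg of DMPT (horizontal axis) for the 40 Slc25 genes, with the line of equality dashed; purple points were called with both chemicals, blue with DMPT only and red with p-toluidine only. The 7 purple genes lie in the lower left or upper right, and Slc25a30 has the widest error bars.

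The tissue label was borne out by hepatocyte genes: 9 of the 10 markers were measured, and each lay at or above the 99.77th percentile of all probe sets. Some quality and cell type values moved with dose, and their part in the Slc25 results was not tested. The gap between the 3′ and 5′ probe sets of beta-actin, a sign of RNA integrity, was 1.48 ± 0.15 (SD) with DMPT vehicle and 1.28 ± 0.08 at 120 mg/kg, and 1.80 ± 0.15 and 1.52 ± 0.09 with p-toluidine. Genes of cell division were higher at 120 mg/kg in 3 of 8 cases with DMPT and 6 of 8 with p-toluidine. The mean level of these 8 ran from 4.72 to 5.55 with DMPT vehicle and from 5.70 to 6.30 at 120 mg/kg, and from 3.28 to 4.77 and from 4.59 to 5.50 with p-toluidine. Of 11 measured erythroid genes 2 were higher with each chemical; their mean level ran from 3.77 to 4.02 and from 3.90 to 4.25 with DMPT, and from 3.24 to 3.40 and from 3.39 to 3.65 with p-toluidine. Of 7 measured cholangiocyte genes 2 were higher with each. In bulk liver, fewer cells of a type and less RNA per cell cannot be told apart. The interquartile range of 5 DMPT arrays was narrow, at most 3.14 against at least 3.22 in the other DMPT arrays (the p-toluidine arrays ran from 3.13 to 3.31); they are 1 array of the 6 mg/kg group, 2 of the 60 mg/kg group and 2 of the 120 mg/kg group. Without them the DMPT calls at 120 mg/kg of Slc25a3, Slc25a22, Slc25a23, Slc25a25, Slc25a32 and Slc25a48 were lost, those of Slc25a15, Slc25a39 and Slc25a44 were kept, and Slc25a16 was called higher (0.22, adjusted p = 0.0432).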

How the data were processed

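Per the labels, liver RNA was hybridized to 60 Affymetrix 3′ expression arrays. The authors deposited 1 table of values; RMA is named, with no version, in the submitters' processing notes, and the deposited values are taken as log2 from their range. The array medians lie within 3.53 to 3.61 for DMPT and 2.73 to 2.81 for p-toluidine, with no overlap, so the chemicals appear to have been normalized apart. The number of arrays limits the precision.

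Fits used limma 3.58.1 in R 4.3.3: 6 group means per chemical for the doses, 12 group means over 60 arrays for the difference of responses, and a slope on dose rank for the trends. The trend stands in for ORIOGEN, which the series' design names and which was not run. Moderated p-values were adjusted by Benjamini-Hochberg over the 31042 probe sets that are not controls, and called at 0.05. Counts over genes use the brightest 1-symbol probe set of each gene. The code was tested on simulated data. Genes are named by this rule: every member is accounted for, members called in any comparison are given with values, the 12 called members with the largest change at 120 mg/kg are given by array, and up to 3 called genes with the largest change are named from each pathway list. Vdac1 and Vdac2 are named in addition, for their place in the outer membrane. The members and lists were chosen with earlier results of these data known. Alternatives were the replicate block, quantile normalization over all arrays, median centring, a filter on dim probe sets, an intensity trend with a robust prior, the mean of all probe sets, fits of only the groups compared, and leaving out each array. The fit without 5 narrow arrays, the step from 60 to 120 mg/kg and the search for genes most like Slc25a30 and Slc25a25 were chosen after seeing the data. Promoters are RefSeq's, on GRCr8.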

Additional observations from a re-analysis of the deposited data

Results flagged for a closer look

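Both results flagged are single vehicle arrays of Slc25a10 that stand apart from the other 4 of their group by Dixon's test, among the 48 vehicle and 120 mg/kg groups of the 12 genes called at a dose; chance flags about 1 in 20 groups. DMPT vehicle replicate 4 read 7.50, against 7.35 to 7.38 in the others. p-Toluidine vehicle replicate 3 read 6.77, against 6.99 to 7.06. The first lies above and the second below its group. The DMPT call of Slc25a10 at 20 mg/kg was lost in 0 of 10 fits without 1 array, with a change between -0.39 and -0.32.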

How the results depend on the processing

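Of 54 calls of single Slc25 genes, none changed direction under any alternative run. In 386 values under other settings 39 calls were lost, and in 940 fits without 1 array 97 were lost. The number of Slc25 genes called at 20 mg/kg of DMPT was 5, and 3 with each array centred on its median, 2 with the mean of all probe sets and 3 with only the arrays compared. At 6 mg/kg of DMPT it was 0, and 1 with the filter on dim probe sets, 1 with the intensity trend and robust prior (Slc25a10 in both) and 1 without the narrow arrays (Slc25a45). At 20 mg/kg of p-toluidine it was 1, and 2 with centring, with the filter and with the intensity trend, where Slc25a44 was added. At 60 mg/kg of p-toluidine it was 6, and 12 with the filter, which left 33 members, and 2 with only the arrays compared. At 120 mg/kg of DMPT it was 9, and 4 without the narrow arrays. The causes were not tested. Leaving out 1 array gave 0 to 1 members at 6 mg/kg, 2 to 4 at 20 mg/kg, 3 to 5 at 60 mg/kg and 4 to 10 at 120 mg/kg of DMPT. It gave 1 to 2 at 20 mg/kg, 2 to 5 at 60 mg/kg and 6 to 9 at 120 mg/kg of p-toluidine. The count moved by over 1.5 times in 8 of 10 fits at 20 mg/kg of DMPT (all but those without vehicle replicate 4 and 20 mg/kg replicate 2). It did so for 60 mg/kg of DMPT without vehicle replicate 4 and 60 mg/kg replicates 2 and 5 (3 each), for 6 mg/kg without replicate 5 of that dose, and for 20 mg/kg of p-toluidine without vehicle replicate 1 and 20 mg/kg replicate 1 (2 each). The count for 120 mg/kg of DMPT moved as far without vehicle replicate 1 (4 members) and without 120 mg/kg replicate 5. That for 60 mg/kg of p-toluidine did so without 60 mg/kg replicate 3 (2 members) and without replicate 5. Trends gave 8 to 10 with DMPT and 10 to 11 with p-toluidine, and differences between the chemicals 0. With the replicate number as a block the counts at 20, 60 and 120 mg/kg were 4, 5 and 9 with DMPT and 1, 6 and 8 with p-toluidine. Whether the number pairs arrays was not settled. Of 50 same-number pairs of arrays 10 had a correlation over 0.1, in a range from -0.31 to 0.32. By dose, the mean ran from -0.10 to 0.09 for same-number pairs and from -0.02 to 0.03 for other pairs. It was highest at 6 mg/kg of DMPT, at 0.09 against -0.02. Signal near background limits the 7 dim members.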

Other observations

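The spread of Slc25a30 and, less closely, that of Slc25a25 between arrays of 1 group was shared with other genes, as a description with no test. With group means removed, the gene most like Slc25a30 over the 60 arrays was Onecut1, a liver transcription factor (Pearson r 0.90, Spearman rho 0.92; r 0.92 within each chemical). Helz2 followed at 0.85, Socs2, a target of growth hormone signalling, at 0.78 and Cebpb at 0.77, while Bcl6, a repressor that growth hormone lowers, stood at -0.80 and Rin2 at -0.78. For Slc25a25 the most alike were Coq10b at 0.67, Angptl8, an insulin-responsive secreted protein, at 0.66, Noct, a circadian gene, at 0.64 and Sgk1, a glucocorticoid-responsive kinase, at 0.64. Within the chemicals r was 0.81 with DMPT and 0.47 with p-toluidine for Coq10b, and 0.65 and 0.66 for Angptl8. These values share arrays, and the genes were picked for the largest correlations in size. The search took the 14217 genes without those whose symbols start with LOC, RGD, AABR or MGC.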
